A study of Mus musculus with 8 samples.

Results

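The genes described here are the Slit and netrin axon guidance genes Slit1, Slit2, Slit3, Ntn1 and Dcc, 5 genes in all, profiled for H3K27me3 in 5 mouse cell libraries. They were chosen by name with earlier results of the same peak lists in view, and they were selected on the presence of H3K27me3 peaks within a fixed window around each gene, so peak presence and length are described without a test. Together the windows span 2517 kb and held 289 of the 208616 deposited peaks, 25 of AstroEGFR 1, 9 of AstroEGFR 3, and 74, 114 and 67 of the PT libraries 1, 3 and 4. Across the whole lists these libraries had 34021, 3722, 64504, 40090 and 66279 peaks.

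AstroEGFR cells (replicates 1 and 3, n = 2) were cerebral cortex astrocytes of C57BL/6 mice at postnatal day 5 with a p16/p19 (Ink4a/Arf) knockout, infected with a retroviral vector that overexpresses human EGFRvIII, a constitutively active form of the EGF receptor. PT cells (replicates 1, 3 and 4, n = 3) were glioma propagating cells cultured from tumours that C57BL/6 cells had formed in CD1 Nude mice, hosts without mature T cells but with other immune cells. By the study's methods the tumours grew from transplanted AstroEGFR cells, so both groups share the deletion and the receptor, and all cells were used below passage 10. AstroEGFR cells were grown in serum and PT cells in serum-free medium with EGF and FGF2, so stage and medium cannot be told apart. The lists hold no expression values, and the labelled cell types were not checked against markers. With 2 against 3 libraries even a one-sided exact permutation test could not give p below 0.1.

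The lists differed in ways that touch every result below. Of the autosomes, 2.07% lay in AstroEGFR 1 peaks and 0.139% in AstroEGFR 3 peaks, and the PT lists 1, 3 and 4 covered 3.64%, 1.63% and 3.50%, and AstroEGFR 3 had far fewer peaks than any other library. Unplaced sequences carried 179 peaks of AstroEGFR 1, 194 of PT 1 and 236 of PT 4 but 0 of AstroEGFR 3 and PT 3, so values are also given within these 2 sets. Read depth is unknown. A window without a peak is one in which nothing passed the threshold of that list.

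H3K27me3 is written by Polycomb repressive complex 2, is associated with silent developmental genes, and is typically found over CpG-rich gene starts, from which it can spread into broad domains. Slit proteins are secreted ligands of the Robo receptors and repel growing axons and migrating cells. Netrin-1, the product of Ntn1, is a secreted cue that attracts axons through the receptor encoded by Dcc and repels them through receptors of the Unc5 family, while Robo and Dcc signalling influence each other at the midline.

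Promoter sequences are shown for Slit2 and Slit3, the only 2 of the 5 genes with an entry among the RefSeq promoters used. Both had peaks near the 5′ edge of the window in every PT library and in no AstroEGFR library. Without promoters of Slit1, Ntn1 and Dcc, sequence could not be compared with that pattern. The sequences are the 250 bases before the transcription start in RefSeq (GRCm38.p6, plus strand), with each CG dinucleotide in capitals. They span chr5:47982905-47983154 for Slit2 and chr11:35121206-35121455 for Slit3. These positions belong to another genome build than the peaks, mm9, and the 2 cannot be overlaid.
Slit2: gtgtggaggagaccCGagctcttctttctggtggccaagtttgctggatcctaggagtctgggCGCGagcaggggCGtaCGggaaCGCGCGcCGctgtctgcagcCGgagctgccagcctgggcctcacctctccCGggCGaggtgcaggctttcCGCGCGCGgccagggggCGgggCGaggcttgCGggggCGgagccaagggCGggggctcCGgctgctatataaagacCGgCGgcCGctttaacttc
Slit3: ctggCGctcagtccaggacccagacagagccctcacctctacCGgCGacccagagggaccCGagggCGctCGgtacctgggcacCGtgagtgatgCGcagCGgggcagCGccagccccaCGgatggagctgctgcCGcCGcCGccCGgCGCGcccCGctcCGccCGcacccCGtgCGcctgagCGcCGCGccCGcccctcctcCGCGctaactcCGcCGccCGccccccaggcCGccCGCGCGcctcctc
The Slit2 sequence held 25 CG dinucleotides and was 69.6% G and C, and that of Slit3 held 35 and was 78.8% G and C. Among 32851 RefSeq promoters the median was 6 CG dinucleotides, with at least 25 in 10.7% and at least 35 in 2.97%. Both promoters were thus among the more CpG-rich ones, as a description of their sequence only.

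Slit2 and Slit3 also share an intragenic microRNA. In the GRCm38 annotation Slit2 contains Mir218-1 and Slit3 contains Mir218-2, on the strand of the host gene. The mature products of their 3′ arms differ. Both give the same mature product from the 5′ arm, shown with its seed (bases 2 to 8) in capitals.
mmu-miR-218-5p: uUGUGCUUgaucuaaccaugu
Neither hairpin was placed on mm9, so no peak value is assigned to them.

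Over the 5 windows, PT libraries carried more peak length than AstroEGFR libraries. Peaks covered 35.0 kb in AstroEGFR 1 and 7.77 kb in AstroEGFR 3, against 94.4 kb in PT 1, 115 kb in PT 3 and 99.9 kb in PT 4. The means were 21.4 ± 19.3 kb (SD, n = 2) and 103 ± 10.7 kb (SD, n = 3), and the groups did not overlap. The difference was 81.7 kb. How many autosomal windows of these lengths also show no overlap was not counted, here or for the single genes below. Non-overlap is therefore not read as particular to these genes. Within the set of lists with unplaced peaks, PT 1 and PT 4 had 2.69 and 2.85 times the peak length of AstroEGFR 1, and within the other set PT 3 had 14.8 times that of AstroEGFR 3. Over all autosomes the same ratios were 1.75, 1.69 and 11.7, so the lists as a whole differed in the same direction. PT 3 exceeded AstroEGFR 1 in these windows although its list covered less of the autosomes.

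Peak length was unevenly spread over the genes. Slit1 held 73.3% and 71.7% of the peak length of the 5 windows in AstroEGFR 1 and AstroEGFR 3, and 63.8%, 41.7% and 58.8% in PT 1, PT 3 and PT 4. Of the 5 gene windows, 4 (Slit1, Slit2, Slit3 and Ntn1) held a peak in all 3 PT libraries, and 1 of these, Slit2, held none in either AstroEGFR library. Long windows often hold a peak by their length. Among consecutive autosomal windows of the same length, the share marked in all 3 PT was 31.8% at the length of Slit1, 48.1% for Slit2, 62.9% for Slit3, 37.5% for Ntn1 and 72.7% for Dcc. The share that in addition had no AstroEGFR peak was 5.63%, 6.25%, 4.80%, 6.05% and 4.06% at those lengths.

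**Figure D1:**
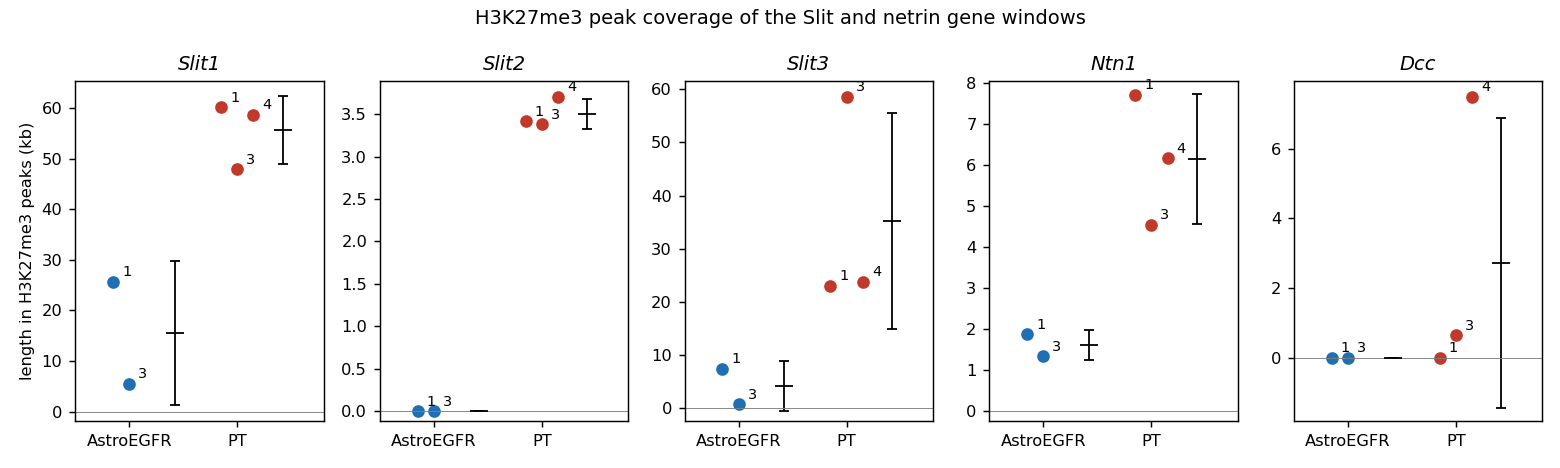
Length in H3K27me3 peaks (kb) in the window of each gene, 1 point per library, labelled with its replicate number (AstroEGFR blue, PT red); black bars give the mean and SD of AstroEGFR (n = 2) and PT (n = 3), and each panel has its own scale. In Slit1, Slit2, Slit3 and Ntn1 every PT point lies above both AstroEGFR points, PT 3 stands apart at Slit3 with 58.5 kb, and in Dcc PT 1 lies at 0 with both AstroEGFR libraries. The share of other autosomal windows with this order was not counted.

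Merging the 5 lists gave 140 regions that touched the windows, 37 at Slit1, 1 at Slit2, 88 at Slit3, 6 at Ntn1 and 8 at Dcc. Every PT library marked 24 of these, 10 of which had no AstroEGFR peak. A further 2 were marked in AstroEGFR 1 alone, and the share of the whole union in this class was not counted. Over the whole union, every PT library marked 11.0% of regions, and 3.76% had in addition no AstroEGFR peak. The 10 regions comprised 6 at Slit1, 1 at Slit2 and 3 at Slit3. In all, 95 of the 140 (67.9%) were marked in 1 library only, against 57.3% of the whole union, and 56 (40%) in PT 3 only, against 15.6%.

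Slit2 encodes a Slit repellent of the brain midline. Its window (chromosome 5, 48365000 to 48705000, all peak coordinates as in the lists, mm9) held no peak in AstroEGFR 1 or AstroEGFR 3 and a single peak in each PT library. The peak ran from 48374732 to 48378149 in PT 1 (3418 bp), from 48374507 to 48377889 in PT 3 (3383 bp) and from 48374520 to 48378222 in PT 4 (3703 bp). The 3 peaks thus had nearly the same edges, with 3158 bp in common (48374732 to 48377889).

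The Slit2 peak lay near the 5′ edge of the window. It began between 9.51 and 9.73 kb from the 5′ edge of the window. That is inside the 13.6 kb by which the window exceeds the length of the gene in RefSeq (GRCm38). Whether it lies in the gene or before it was not determined here. The study describes a Slit2 peak at the transcription start in its H3K27me3 tracks. No library had a peak in the remaining part of the window. Peak length was 3.50 ± 0.176 kb (SD, n = 3) in PT and 0 in both AstroEGFR libraries. The share of the window in peaks was 0.28, 0.61 and 0.31 times the autosomal share in PT 1, PT 3 and PT 4, thus below it in each. The base pairs shared by pairs of PT libraries made 0.867 to 0.923 of those in either (Jaccard index), while over the whole lists the same pairs reached 0.183 to 0.506. No other window reached a Jaccard index above 0.662 between PT libraries. With a single peak per PT library, the Slit2 index reflects only how well the edges of that peak agree. The whole lists and the other windows also hold peaks that other libraries lack, which lower the index. These values are therefore not a like comparison, and Slit2 was not compared with other regions marked in every PT library.

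The score of a peak, a caller's value that rises with the strength of enrichment, is comparable only as a rank within its list. The Slit2 peak scored 1121 in PT 1, 1013 in PT 3 and 2631 in PT 4. These scores stood at percentiles 93.5, 98.1 and 98.0 of the lists, ranks 4182, 779 and 1349. Among the 3745 union regions marked in all 3 PT and neither AstroEGFR library, the Slit2 region ranked 32nd by its lowest percentile over the PT lists. The nearest peak of an AstroEGFR list lay 376630 bp away. Limited to the 3722 strongest peaks of each list, the length of the AstroEGFR 3 list, the peak remained in PT 3 and PT 4 and was lost in PT 1.

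**Figure D2:**
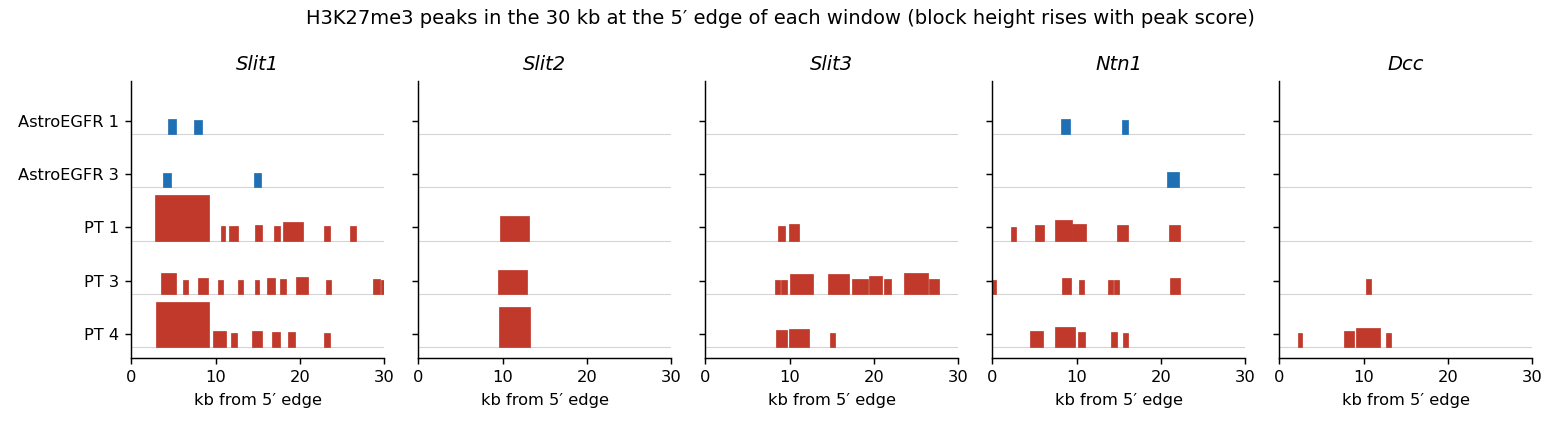
Peaks in the 30 kb at the 5′ edge of each window (x axis, kb from the edge), 1 line per library (AstroEGFR blue, PT red), with block width equal to peak width and block height rising with the score. The single Slit2 peak has the same place in PT 1, PT 3 and PT 4, Slit3 has no block in either AstroEGFR library, and Dcc has blocks in PT 3 and PT 4 only.

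Slit3 encodes a further Slit repellent with roles in brain, diaphragm and vessels. Its window (chromosome 11, 34925000 to 35630000) held 5 peaks in AstroEGFR 1 and 1 in AstroEGFR 3, and the PT libraries 1, 3 and 4 had 28, 61 and 22. Peak length was 7.47 kb in AstroEGFR 1 and 0.846 kb in AstroEGFR 3, against 23.1 kb in PT 1, 58.5 kb in PT 3 and 23.8 kb in PT 4. The groups did not overlap, with means of 4.16 ± 4.69 kb (SD, n = 2) and 35.2 ± 20.3 kb (SD, n = 3). PT 3 decided much of the difference, which was 31.0 kb with PT 3 and 19.3 kb without it.

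All AstroEGFR peaks of the window lay at its 3′ end. The window is 118 kb longer than the gene in RefSeq, and every AstroEGFR peak began within the last 76.8 kb. In the GRCm38 annotation the next protein-coding genes past Slit3 are Pank3 and Fbll1, and which gene these peaks touch was not determined. The first 587 kb of the window are as long as the gene, but how far they coincide with it was not determined. In this stretch AstroEGFR 1 and AstroEGFR 3 held 0 peaks, PT 1 held 19 (13.6 kb), PT 3 held 54 (53.7 kb) and PT 4 held 16 (14.9 kb). This limit was set after the values were seen, and with it the window of Slit3 joined that of Slit2 in being marked in all 3 PT and neither AstroEGFR library, 2 of the 5.

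Near the 5′ edge of the Slit3 window, a pair of adjacent regions was marked in all 3 PT libraries and neither AstroEGFR library. The first (34933274 to 34934658) held 848, 1300 and 1319 bp of peak in PT 1, PT 3 and PT 4. The second (34934923 to 34937734) began 9.92 kb from the 5′ edge and held 1211, 2700 and 2292 bp, with scores of 336, 640 and 424. The nearest AstroEGFR peak was 276922 and 278571 bp away from them. The third such region of the window (35556412 to 35557623) lay at its 3′ end, 2497 bp from an AstroEGFR peak. By lowest percentile over the PT lists the second region ranked 311th of the 3745, the others 2882nd and 2964th.

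PT 3 differed from PT 1 and PT 4 along Slit3. In the 40 kb at the 5′ edge its peaks covered 40.1%, against 6.70% in PT 1 and 13.3% in PT 4, and between 100 and 160 kb from the edge they covered 29.0%, against 2.29% and 3.46%. These stretches were picked after the values were seen. Of the 88 regions of the window 48 (54.5%) were marked in PT 3 alone, 14 (15.9%) in PT 1 alone and 8 (9.09%) in PT 4 alone. Over the whole union these shares were 15.6%, 17.0% and 17.7%. The Jaccard index was 0.306 between PT 1 and PT 4 but 0.0896 and 0.0997 between PT 3 and these libraries. Peak length over the window was 5.10 times the autosomal share in PT 3 and 0.900 and 0.966 times it in PT 1 and PT 4. In AstroEGFR 1 and AstroEGFR 3 it was 0.511 and 0.865 times that share, so on this scale AstroEGFR 3 lay close to PT 1 and PT 4. Chromosome 11 as a whole was covered to 6.70%, 2.14% and 6.61% in PT 1, PT 3 and PT 4. Of the PT libraries, PT 3 thus had the lowest share of the chromosome and the highest share of the window.

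The strongest peak of the window was the 3′ one in PT 1 and PT 4, and the same place stood out in AstroEGFR 1. It ran from 35576662 to 35579881 in PT 1 (score 1598), from 35576316 to 35579887 in PT 4 (score 1158) and from 35576691 to 35579817 in AstroEGFR 1 (score 611). PT 3 and AstroEGFR 3 had no peak there, so the site was marked in the 3 lists with unplaced peaks and in neither of the other 2. Farther on, the region from 35610446 to 35613683 was marked in all 5 libraries, with 2857 and 846 bp in the AstroEGFR libraries 1 and 3 and 1791, 1757 and 1874 bp in PT 1, PT 3 and PT 4.

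**Figure D3:**
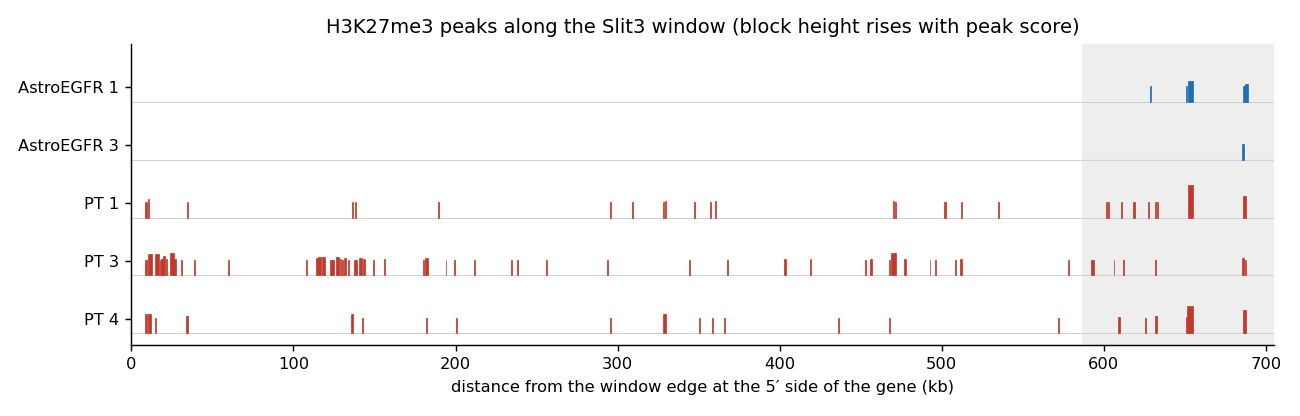
Peaks along the 705 kb window of Slit3 (x axis, kb from the edge at the 5′ side), 1 line per library (AstroEGFR blue, PT red), with block height rising with the score. Grey marks the last 118 kb of the window, the length by which it exceeds the gene. AstroEGFR blocks lie in the grey stretch only, and PT 3 has dense groups of blocks in the first 40 kb and between 100 and 160 kb, where PT 1 and PT 4 have few.

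Slit1 encodes the Slit ligand that is mainly neural in expression, and its window had the most peak length of the 5 in both AstroEGFR libraries. Its window (chromosome 19, 41670000 to 41822000) held 18 peaks in AstroEGFR 1 and 7 in AstroEGFR 3, and 39, 45 and 31 in PT 1, PT 3 and PT 4. Peaks covered 25.7 kb (16.9%) in AstroEGFR 1 and 5.57 kb (3.66%) in AstroEGFR 3. They covered 60.2 kb (39.6%) in PT 1, 47.9 kb (31.5%) in PT 3 and 58.7 kb (38.6%) in PT 4. The groups did not overlap, with means of 15.6 ± 14.2 kb (SD, n = 2) and 55.6 ± 6.67 kb (SD, n = 3).

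Slit1 was densely marked in every library relative to that library's own list. The share of the window in peaks was 8.15 and 26.4 times the autosomal share in AstroEGFR 1 and AstroEGFR 3, and 10.9, 19.4 and 11.0 times it in PT 1, PT 3 and PT 4. The order of the groups in covered length was therefore not kept on this relative scale, on which AstroEGFR 3 was highest. PT 1 and PT 4 had 2.34 and 2.29 times the length of AstroEGFR 1, and PT 3 had 8.61 times that of AstroEGFR 3. Nearly all of the AstroEGFR 3 peak length (98.2%, 87.8% and 98.4%) lay in peaks of PT 1, PT 3 and PT 4, as did 80.7%, 65.0% and 89.7% of that of AstroEGFR 1. Over the whole lists these shares were 63.6%, 63.1% and 64.5% for AstroEGFR 3 and 67.6%, 27.2% and 65.4% for AstroEGFR 1.

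The mark was unevenly spread along Slit1. In the PT libraries a block at the 5′ edge and a long block beyond 80 kb were separated by a more sparsely marked stretch. AstroEGFR 1 was also densely marked beyond 80 kb, but near the 5′ edge it had only separate peaks of 988 and 944 bp. AstroEGFR 3 had only separate peaks of at most 907 bp beyond 80 kb. Between 20 and 40 kb peaks covered 28.5%, 23.6% and 6.33% in PT 1, PT 3 and PT 4. Between 60 and 80 kb they covered 3.96%, 12.4% and 2.87%, and both AstroEGFR libraries had 0% in these 2 stretches. Between 40 and 60 kb peaks covered 4.45% in AstroEGFR 1, 0% in AstroEGFR 3 and PT 1, 8.74% in PT 3 and 2.99% in PT 4, and between 80 and 100 kb they covered 28.8%, 7.14%, 57.4%, 50.9% and 55.1% in the same order. Of the 37 regions, 17 were marked in all 3 PT, a class that made 11.0% of the whole union. All 5 libraries marked 5 of the 37, and the share of the whole union in this class was not counted. The widest of all (41682344 to 41692151, 9808 bp) held 2140 bp of AstroEGFR 1 peak, none of AstroEGFR 3, and 6942, 6505 and 9035 bp of the PT libraries 1, 3 and 4. The widest of those marked in all 5 (41730732 to 41737961, 7230 bp) held 4542 bp of AstroEGFR 1 peak and 840 bp of AstroEGFR 3 peak, and the PT libraries 1, 3 and 4 covered 6950, 6319 and 6765 bp of it.

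Near the 5′ edge of the Slit1 window, narrow peaks of AstroEGFR stood against wide ones of PT 1 and PT 4. The region from 41812762 to 41819232, 2.77 kb from the 5′ edge, was a single peak of 6471 bp in PT 1 and of 6291 bp in PT 4 (41812813 to 41819103). The score was 3122 in PT 1, rank 56 of its list, and 3100 in PT 4, a value shared by 1035 peaks of that list that begins at rank 48. In the same region AstroEGFR 1 had 1932 bp in narrow peaks with a best score of 143 (percentile 53.4 of its list). AstroEGFR 3 had 968 bp (score 150, percentile 82.1) and PT 3 had 3573 bp (score 700, percentile 96.3). In the 20 kb at the 5′ edge peaks covered 9.66% and 9.18% in AstroEGFR 1 and AstroEGFR 3, and 59.3%, 37.4% and 56.5% in PT 1, PT 3 and PT 4. AstroEGFR 1 and AstroEGFR 3 were nearly equal there, although their lists differed widely in length.

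The regions of Slit1 that every PT library and no AstroEGFR library marked lay mostly toward the 5′ edge. Of the 6, 5 lay between 9.67 and 32.5 kb from the 5′ edge, and 1 lay 107 kb from it. They ranked from 960th to 2964th of the 3745 by lowest percentile over the PT lists, and the distance to an AstroEGFR peak was 106 bp to 16.9 kb (16853 bp).

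**Figure D4:**
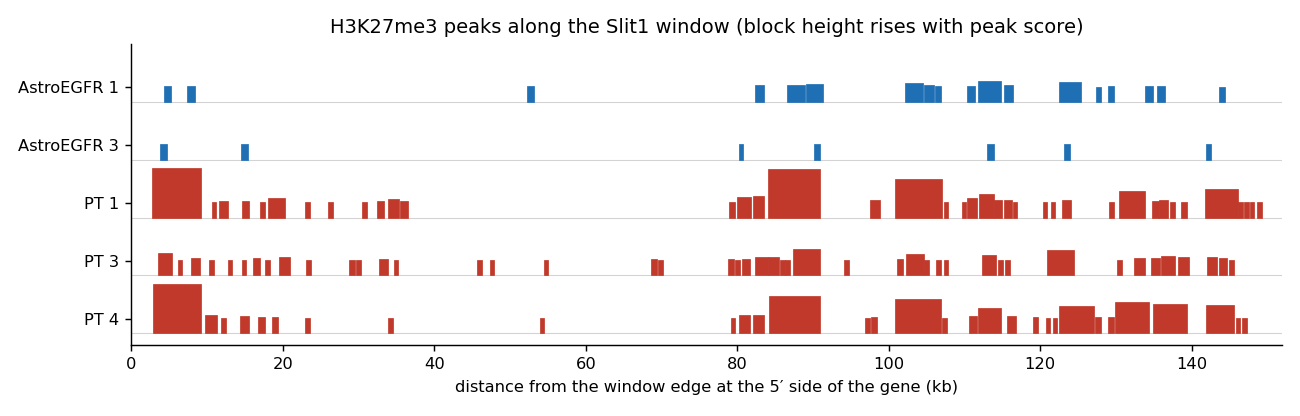
Peaks along the 152 kb window of Slit1 (x axis, kb from the edge at the 5′ side), 1 line per library (AstroEGFR blue, PT red), with block height rising with the score. All libraries have blocks near the 5′ edge and beyond 80 kb, and the block at the 5′ edge is a single tall peak of 6471 bp in PT 1 and 6291 bp in PT 4.

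Ntn1, the netrin ligand gene, carried peaks only near the 5′ edge of its window (chromosome 11, 68015000 to 68220000). They lay within 22.3 kb of that edge in every library, a stretch shorter than the 27.5 kb by which the window exceeds the gene, so whether they lie in the gene or before it was not determined. A PT 3 peak crossed this edge, and further peaks lay past it. The nearest were 18.0 and 13.6 kb past it in AstroEGFR 1 and AstroEGFR 3. In PT 1, PT 3 and PT 4 they were 2.66, 7.32 and 2.95 kb past it. Peak length outside the window is not counted here. Peak length was 1.88 kb in AstroEGFR 1 and 1.35 kb in AstroEGFR 3, against 7.71 kb in PT 1, 4.55 kb in PT 3 and 6.16 kb in PT 4. The groups did not overlap, with means of 1.61 ± 0.372 kb (SD, n = 2) and 6.14 ± 1.58 kb (SD, n = 3). Relative to the autosomal share of each list the order was not kept, with 0.442 and 4.75 times it in AstroEGFR 1 and AstroEGFR 3 and 1.03, 1.36 and 0.858 times it in PT 1, PT 3 and PT 4.

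The 2 AstroEGFR libraries had no base pair of the Ntn1 window in common. The region from 68208939 to 68212605 held 1096 bp in AstroEGFR 1 and none in AstroEGFR 3, and 3647, 1676 and 3279 bp in PT 1, PT 3 and PT 4, whereas that from 68197734 to 68199230 held 1350 bp in AstroEGFR 3 and 1249 and 1139 bp in PT 1 and PT 3 but none in AstroEGFR 1 or PT 4. No region of the window was marked in all 3 PT and neither AstroEGFR library. The best Ntn1 peak stood at percentiles 56.0 and 88.7 in AstroEGFR 1 and AstroEGFR 3 and 88.6, 84.0 and 89.8 in PT 1, PT 3 and PT 4, so on this scale AstroEGFR 3 lay within the range of PT. When every list was reduced to its top 3722 peaks by score, the Ntn1 difference turned from 4.53 kb to -0.675 kb, since the whole list of AstroEGFR 3 was then set against the strongest peaks of the others.

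Dcc, the netrin receptor gene, was nearly free of peaks. Its window (chromosome 18, 71405000 to 72520000) is the longest of the 5, and it held 0 peaks in AstroEGFR 1, AstroEGFR 3 and PT 1, 1 in PT 3 and 8 in PT 4. Peak length was 0.645 kb in PT 3 and 7.49 kb in PT 4, and the groups overlapped at 0. Consecutive autosomal windows of this length had a median of 13.3 kb in PT 1, 6.17 kb in PT 3 and 13.9 kb in PT 4, so Dcc lay below the median in each.

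Of the 8 Dcc peaks of PT 4, 4 lay in the 30 kb at the 5′ edge. The region from 72508106 to 72510930, 9.07 kb from the 5′ edge, held a peak of 2825 bp with a score of 569 (percentile 88.1) in PT 4 and one of 645 bp with a score of 129 (percentile 59.6) in PT 3. The other 7 regions of the window were marked in PT 4 only. PT 4 alone thus accounted for most of the Dcc difference of 2.71 kb, which was 0.323 kb without it.

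**Figure D5:**
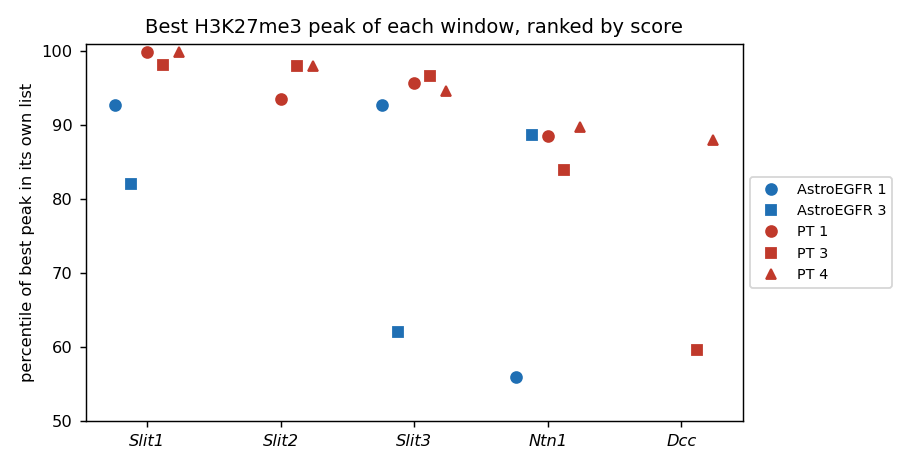
Percentile, within its own list, of the best-scoring peak of each window (y axis, from 50), 1 point per library with a peak (AstroEGFR blue, PT red; circles replicate 1, squares 3, triangle 4). The PT points of Slit1 and Slit2 lie between 93.5 and 99.9, those of Ntn1 between 84.0 and 89.8, and Slit2 and Dcc have no AstroEGFR point.

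The 30 kb at the 5′ edge was marked in every PT library at the 4 ligand genes and in 2 of 3 at Dcc, the only receptor gene here. How often other 30 kb stretches or gene starts are marked was not counted, so these counts have no background. PT 4 peaks covered more of this stretch at Dcc than those of any PT library did at Slit2. The 30 kb at the 5′ edge was covered to 45.2%, 34.0% and 39.8% in PT 1, PT 3 and PT 4 at Slit1, to 11.4%, 11.3% and 12.3% at Slit2, to 6.86%, 49.0% and 14.2% at Slit3 and to 25.7%, 15.2% and 20.5% at Ntn1, but to 0%, 2.15% and 17.2% at Dcc. In AstroEGFR 1 and AstroEGFR 3 these shares were 6.44% and 6.12% at Slit1, 6.25% and 4.50% at Ntn1, and 0% at Slit2, Slit3 and Dcc. The share at Slit2 varied least over the PT libraries and that at Slit3 ranged most widely. The 5′ segment held 20.3% to 22.5% of the Slit1 peak length of PT libraries, 8.93% to 25.1% of that of Slit3, and 100% of that of Slit2 and Ntn1.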

How the data were processed

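H3K27me3 ChIP-seq peak lists of 2 AstroEGFR and 3 PT libraries were used, and 3 input libraries were not analysed here. Per the labels, the authors used Bowtie 0.12.9 and MACS 1.4.1 on mm9, and deposited for each library the position of each peak and a score. In this MACS version the score is usually a multiple of −log10 of the p-value, but no header says so; many peaks are tied at 3100. The input and the number of reads behind each list are not given in the sources used here, so depth is unknown, and a deeper or better enriched library can give more, wider and higher-scoring peaks. The study calls the numbered AstroEGFR cultures independent batches; from which of them each PT tumour grew is not given in the sources used here.

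The members, windows and groups of lists were chosen with earlier results of these data known. Peaks overlapping a window by at least 1 bp were taken, covered length was cut at the window edges, and the named genes are all 5 members with their best, widest and PT-only regions. Autosomal shares and windows ran from the first to the last peak of chromosomes 1 to 19. Gene starts on mm9 were not used here. The 5′ side was set from the strand, taken from the RefSeq promoter table for Slit2 and Slit3 (2 of 5 members matched) and from general knowledge for the others. The planned list of other pathway genes was not run without an mm9 annotation. The RefSeq gene table (GRCm38.p6) gave gene lengths and neighbours only. Functions were tested on simulated data and against bedtools 2.31.1. Python 3.11.15, pandas 2.3.3, numpy 2.4.6 and matplotlib 3.10.9 were used.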

Additional observations from a re-analysis of the deposited data

How the results depend on the processing

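The difference in peak length over the 5 windows, 81.7 kb, stayed positive under all 15 alternatives, from 25.7 to 107 kb. It was 66.6 kb with a score of at least 100, 60.9 kb in the better-scoring 50% of every list and 25.7 kb with the strongest 3722 peaks per list, settings that remove peaks by construction. Among AstroEGFR 1, PT 1 and PT 4 (peaks on unplaced sequences) it was 62.1 kb and between AstroEGFR 3 and PT 3 (none) 107 kb, each resting on 1 AstroEGFR library. Leaving out each library in turn gave 68.1 to 95.3 kb. With equal numbers of peaks, 2 windows (Slit1 and Slit3) in place of 4 were marked in all 3 PT, the count marked in neither AstroEGFR library fell from 1 to 0, and the Ntn1 difference was -0.675 kb. The count of windows marked in all 3 PT was 4 to 5 and that marked in neither AstroEGFR library 1 to 2 with any 1 library left out. The latter was 2 without PT 1 and within the lists without unplaced peaks (Slit2 and Dcc). With fewer libraries the requirement is looser, so these counts could by construction only stay or rise. The count marked in neither AstroEGFR library was also 2 when the Slit3 window was limited to the length of the gene (Slit2 and Slit3). That alternative was added after seeing the data. Leaving out PT 3 lowered the Slit3 difference to 19.3 kb, and leaving out PT 4 lowered that of Dcc to 0.323 kb.

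Replicate numbers 1 and 3 occur in both groups, but the labels do not say that they mark a tumour and its astrocyte batch. The replicate block (mean paired difference over these numbers) gave 83.3 kb, by construction the value without PT 4. Since depth is unknown, the absence of AstroEGFR peaks at Slit2, near the 5′ edge of the Slit3 window and at Dcc limits what can be said of the mark there.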
